A study of Mus musculus with 12 samples.

Results

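The NKR-P1, Clr and Cd69 genes are 8 neighbouring C-type lectin genes on mouse chromosome 6: Klrb1a, Klrb1b, Klrb1c, Klrb1f, Clec2d, Clec2g, Clec2i and Cd69. They were chosen by name, and their regions were selected on where intervals had been called. They were followed through 12 ATAC-seq peak lists of splenic natural killer (NK) cells. ATAC-seq finds accessible chromatin, because a transposase cuts open DNA and adds sequencing adapters there. The authors' deposited intervals were given to the 8 genes by position: an interval belonged to a gene if that gene was the nearest protein-coding gene and its body lay within 50 kb. This gave 555 of 603679 deposited intervals. It also gave 37 of the 45091 regions made by merging the lists, all on chromosome 6, for 8 of 21887 protein-coding genes. The values used were the presence and position of an interval in any library, whatever its group. The genes themselves were proposed with earlier results of these data known.

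The libraries formed 4 groups of 3, each library made from 100000 cells. WT cells came from Reg-1fl/fl mice, which carry the floxed allele, and KO cells from Reg-1ΔNK mice, in which Regnase-1 is deleted. Regnase-1 is an RNA-degrading enzyme encoded by Zc3h12a. Cells of each genotype were either left as control or stimulated with IL-12/18, a pair of NK-activating cytokines. The labels give no Cre driver, age, sex, dose or time, and do not say whether replicates came from separate mice, so p-values measure only the spread between these libraries.

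NKR-P1 receptors sit on NK cells and recognise Clr proteins, lectins encoded between the receptor genes themselves, so that receptor and ligand genes are inherited together. NKR-P1C, encoded by Klrb1c, is the activating receptor known as NK1.1, the antigen by which NK cells of some mouse strains are recognised. NKR-P1B, encoded by Klrb1b, is inhibitory and binds Clr-b, the product of Clec2d. NKR-P1F, encoded by Klrb1f, binds Clr-g, the product of Clec2i. CD69 is an early activation marker that binds the egress receptor S1PR1 and holds lymphocytes in tissue.

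The gene order along the chromosome, in the coordinates of the mm10 assembly (RefSeq on GRCm38.p6), mixed receptors and ligands. Klrb1a lay at chr6:128609227-128622934, Klrb1c at chr6:128778485-128788641 and Klrb1b at chr6:128813706-128826315, all on the minus strand. Clec2i lay at chr6:128887587-128898168, Clec2g at chr6:128934381-128984707, Klrb1f at chr6:129045837-129059724 and Clec2d at chr6:129180615-129186535, all on the plus strand. Cd69 lay at chr6:129267324-129275375. Below and above here mean towards lower and higher coordinates.

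The sequences just before the starts of the 4 receptor genes are shown because these genes are similar copies and the covered length of 2 of them, Klrb1a and Klrb1c, fell with stimulation. RefSeq's promoter table (GRCm38.p6) held 7 of the 8 members, all but Cd69. Each line gives the 250 bases before the start, 5′ to 3′ on the gene's strand. Capitals mark TGTGGT, a RUNX motif searched on both strands, which 14% of 32851 promoter windows of the same 250 bases held.
Klrb1a (chr6:128622935-128623184, minus strand): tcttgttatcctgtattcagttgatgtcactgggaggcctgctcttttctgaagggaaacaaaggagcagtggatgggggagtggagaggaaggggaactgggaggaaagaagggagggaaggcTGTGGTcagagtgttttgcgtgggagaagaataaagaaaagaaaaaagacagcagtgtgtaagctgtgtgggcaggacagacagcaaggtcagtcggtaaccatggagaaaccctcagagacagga
Klrb1c (chr6:128788642-128788891, minus strand): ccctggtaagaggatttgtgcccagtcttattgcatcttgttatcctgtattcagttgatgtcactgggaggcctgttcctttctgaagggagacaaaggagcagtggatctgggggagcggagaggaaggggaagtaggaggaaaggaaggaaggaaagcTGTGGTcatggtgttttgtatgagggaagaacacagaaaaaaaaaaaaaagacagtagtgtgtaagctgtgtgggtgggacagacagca
Klrb1b (chr6:128826316-128826565, minus strand): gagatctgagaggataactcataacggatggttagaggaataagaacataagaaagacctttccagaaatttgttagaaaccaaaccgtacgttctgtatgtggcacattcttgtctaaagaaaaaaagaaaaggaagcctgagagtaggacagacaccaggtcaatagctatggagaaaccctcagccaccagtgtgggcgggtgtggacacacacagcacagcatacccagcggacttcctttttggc
Klrb1f (chr6:129045651-129045900, plus strand): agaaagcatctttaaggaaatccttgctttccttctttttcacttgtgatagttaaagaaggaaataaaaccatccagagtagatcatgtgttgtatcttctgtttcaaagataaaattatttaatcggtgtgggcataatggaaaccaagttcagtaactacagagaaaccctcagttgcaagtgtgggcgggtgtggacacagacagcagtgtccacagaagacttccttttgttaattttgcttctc

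The Klrb1a and Klrb1c sequences were near copies. In the alignment, 188 of 210 aligned bases were identical (89.5%), with 80 gapped positions, and the longest identical run was 41 bases. TGTGGT began 126 bases before the Klrb1a start and 89 bases before the Klrb1c start. Klrb1b and Klrb1f shared a run of 22 bases and had no TGTGGT in these windows. The longest shared run of every other pair of members was 16 bases or fewer. The authors' rules for reads that match several copies are not given in the sources used here, and their part in the values of these loci was not tested. Among the other motifs searched, Clec2g alone of the 7 genes held TGANTCA, an AP-1 motif, which 6.75% of promoter windows held. None of the 7 held TTCNNNGAA (STAT, 7.02% of windows) or AGGTGTGA (T-box, 1.12%). A loose NF-kB pattern (GGG and CC with any 5 bases between), which 45.8% of windows held, was found in Klrb1a, Klrb1b and Clec2g and is not marked.

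The lists differed in length, with 35110 distinct intervals for KO stimulated replicate 1 and 63128 for WT stimulated replicate 3. Every list was therefore reduced to its 35110 strongest intervals by the authors' q-value. The weakest retained interval had a −log10 q of 1.31 in KO stimulated replicate 1 and 27.05 in WT stimulated replicate 3. The former list thus reaches down to much weaker q-values, but read depth is unknown and each q-value belongs to its own list. The median width of regions called in all libraries ran from 1128.5 to 1475 bp, and the lowest values were the 1131 and 1128.5 bp of KO stimulated replicates 1 and 2. All 8 NK markers had a region called in every library, against 2 of 5 T-cell, 1 of 4 B-cell, 0 of 5 myeloid and 2 of 4 erythroid markers. The summed number of called regions was 32 to 41 for NK markers, 3 to 5 for T-cell, 3 to 5 for B-cell, 0 to 1 for myeloid and 2 to 3 for erythroid markers. Klrb1c, itself a gene of this report, is among the NK markers and held 5 to 7 of these regions per library. A region was called in all 12 libraries over the start of Zc3h12a, but peak lists of this kind do not check the deletion. In bulk ATAC-seq, opening in more cells and wider opening per cell cannot be told apart.

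Of the 37 regions, Klrb1b held 8, Klrb1c 7, Cd69 6, Klrb1f 5, Clec2d 4, Klrb1a 3, and Clec2i and Clec2g 2 each. In all, 6 regions covered a RefSeq start site, and 17 were called in all 12 libraries (46.7% of all 45091 regions were). Between 25 and 31 of the 37 were called per library. The member region farthest from its gene lay 36.1 kb below Cd69. The nearest regions outside the limit lay 128.8 kb below Klrb1a and 58.3 kb above Cd69, and both were called in every library. Another 10 regions lay within 50 kb of a member but nearer another gene.

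**Figure D1:**
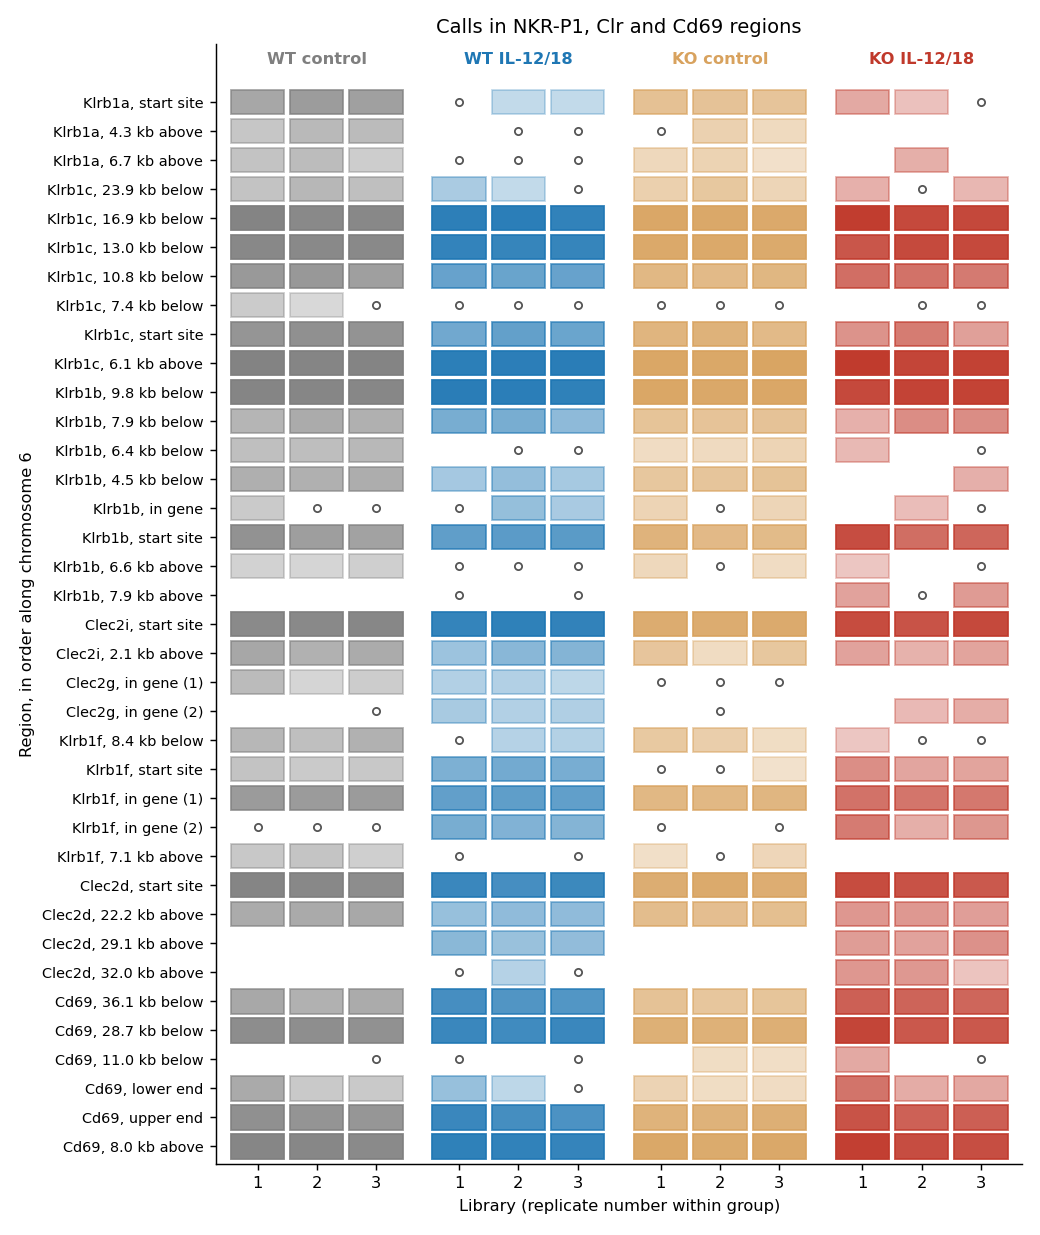
Calls at the 37 regions. Each row is a region, in order along chromosome 6, and each column a library. A filled cell is a call in the equal-length list, darker for a stronger rank, an open circle is a weaker deposited peak only, and an empty cell is no deposited peak. The 2 regions with a call in all 6 stimulated and no control libraries lie in Klrb1f and 29.1 kb above Clec2d.

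Stimulation changed where peaks were called at these genes, in both directions. Over the 8 genes, 3 regions were called in more stimulated than control libraries and 4 in fewer, of 10 that could be tested. Across the genome 33.5% of 8864 testable regions were called in more stimulated libraries and 26.2% in fewer. Among the receptor genes 4 of 7 testable regions were called in fewer stimulated libraries and 1 in more. Among the Clr genes 2 of 3 were called in more and 0 in fewer. No Cd69 region could be tested in this way. Whether receptor and Clr genes differ was not tested, and the member shares lie near the genome-wide ones. When a call had to cover 50% of a region, 0 regions were called in fewer stimulated libraries. The test was an exact two-sided permutation of the libraries within each genotype, with 400 rearrangements and a smallest possible p of 0.005, adjusted by Benjamini-Hochberg over all testable regions.

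A second measure was rank, the place of a region's strongest interval in the equal-length list, with 1 as the strongest. It was tested in the 17 regions called in all 12 libraries. A higher rank number with stimulation shows only that the region fell behind others of its own list. After stimulation 6 of the 17 ranked weaker and 1 stronger, against 25.2% weaker and 17.5% stronger of 21076 regions genome-wide. The weaker regions were 5 of 9 tested receptor regions, 1 of 4 Clr regions and 0 of 4 Cd69 regions. The stronger one belonged to Cd69. Whether the families differ in rank was not tested. With libraries rearranged only within a replicate number, none of the 7 passed (exact permutation test, adjusted p from 0.078 to 0.122). That arrangement has a smallest p of 0.0312. Regions without overlap between control and stimulated libraries also stopped at an adjusted p of 0.078 there, so it cannot decide the rank results.

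Among receptor regions called in all 12 libraries, the largest shift in rank was at Klrb1c. The region over its start (chr6:128786282-128791315) ranked 8532, 6515 and 7789 in WT control libraries and 17599, 14524 and 16223 in stimulated ones. In KO cells it ranked 9936, 8499 and 12558 in control libraries and 21823, 16135 and 25007 in stimulated ones. No stimulated library overlapped a control library. The mean difference was 9580 places weaker with stimulation (exact permutation test, adjusted p = 0.0169). The same region narrowed from 4940, 5034 and 5009 bp to 3272, 3246 and 3465 bp in WT and from 3216, 3260 and 2695 bp to 2606, 2483 and 1358 bp in KO. The width difference of −1287 bp did not pass (exact permutation test, adjusted p = 0.0546), a value that was also the smallest of any region in the genome.

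Other Klrb1c regions behaved unequally. A region 10.8 kb below the gene (chr6:128766424-128767652) fell from ranks of 9472 to 12382 in the 6 control libraries to 12994 to 15876 in the 6 stimulated ones (adjusted p = 0.0169, exact permutation test). The groups did not overlap. A region 13.0 kb below it (chr6:128763324-128765494) had a smaller difference of 1073 places (adjusted p = 0.0282, exact permutation test), and KO stimulated replicates 2 and 3 (4134 and 3730) lay near the controls, which ran from 3561 to 4052. The WT means were 3822 in control and 4734 in stimulated libraries. KO stimulated replicate 1 ranked 7036, and without it the difference was 555 places (adjusted p = 0.0496, exact permutation test). Leaving out WT stimulated replicate 2 or 3, or any KO control library, ended this call, with adjusted p from 0.0508 to 0.16. The strong regions 16.9 kb below and 6.1 kb above the gene ranked between 390 and 4016 in every library, and their rank differences did not pass.

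Covered length is the number of base pairs that called intervals cover in all regions of a gene. For Klrb1c it was 16391 ± 598 bp (SD, n = 3) in WT control libraries and 12375 ± 374 bp after stimulation. The KO values were 12322 ± 406 bp and 10225 ± 328 bp. Every stimulated library lay below every control library of its genotype, and WT stimulated and KO control libraries overlapped. The treatment difference of −3056 bp passed (exact permutation test over 14352 genes, adjusted p = 0.0334). Over all genes 8.12% became longer and 11.9% shorter. With all deposited intervals the Klrb1c difference was −2930 bp and did not pass (adjusted p = 0.0583, exact permutation test).

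Klrb1a, an activating receptor gene, had fewer called regions with stimulation. The region over its start (chr6:128622610-128626052) ranked 15027, 10843 and 12449 in WT control and 16129, 16908 and 17834 in KO control libraries. After stimulation it was not called in WT replicate 1 and ranked 35101 and 34964 in replicates 2 and 3, at the end of the list. In KO stimulated libraries it ranked 27252 and 33091 and was not called in replicate 3. Both uncalled libraries held a weaker deposited peak. Calls in 10 of 12 libraries left neither test applicable to this region.

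Of the upstream regions of Klrb1a, 2 were called in fewer stimulated libraries. The region 4.3 kb above it (chr6:128627229-128628346) was called in 3 WT control, 2 KO control and 0 stimulated libraries (adjusted p = 0.0335, exact permutation test). A deposited peak of any strength was present there in 2 WT and 0 KO stimulated lists. The region 6.7 kb above it (chr6:128629612-128630673) was called in all 6 control libraries, 0 WT stimulated libraries and 1 KO stimulated library (adjusted p = 0.0335, exact permutation test). Deposited peaks of any strength were present there in 3 WT stimulated lists and 1 KO stimulated list. The covered length of Klrb1a was 3841, 4793 and 5528 bp in WT control and 0, 469 and 697 bp in WT stimulated libraries. In KO cells it was 3008, 3743 and 2260 bp in control and 2662, 969 and 0 bp in stimulated libraries. The WT groups were far apart and the KO groups overlapped through KO stimulated replicate 1. The difference of −3063 bp just passed (exact permutation test, adjusted p = 0.0499). It no longer passed when any library other than WT control replicate 1 or KO stimulated replicate 1 was left out (exact permutation test, adjusted p up to 0.0756), or with all deposited intervals (adjusted p = 0.0583). The fall was 2539 bp smaller in KO than in WT cells, a difference that did not pass (exact permutation test, adjusted p = 0.763).

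Klrb1b, the inhibitory receptor gene, kept a broad region over its start (chr6:128822872-128828319) in all libraries, with ranks from 4948 to 13955 and no passing difference. Its weaker flank region 6.4 kb below the gene (chr6:128806521-128807293) was called in 6 of 6 control libraries, 0 WT stimulated libraries and 1 KO stimulated library (adjusted p = 0.0335, exact permutation test). Deposited peaks of any strength were present there in 2 WT and 2 KO stimulated lists. The region 7.9 kb below (chr6:128804816-128805849) ranked 16810 to 20274 in control and 18927 to 29080 in stimulated libraries, which overlap. Its difference of 4030 places passed narrowly (adjusted p = 0.0469, exact permutation test). Leaving out any 1 of 8 libraries ended the call: WT control replicate 2 or 3, or any WT stimulated or KO control library (adjusted p from 0.051 to 0.16). Without KO stimulated replicate 1, at 29080, the difference was 2585 places (adjusted p = 0.0416, exact permutation test). The covered length of Klrb1b in WT libraries was 7053 to 9982 bp in the controls and 5147 to 7162 bp after stimulation. In KO libraries the ranges were 5633 to 7733 bp and 3835 to 6588 bp. That difference of −1989 bp did not pass (exact permutation test, adjusted p = 0.0858). With regions given to the nearest of the 8 members it was −3618 bp and passed (exact permutation test, adjusted p = 0.0334).

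**Figure D2:**
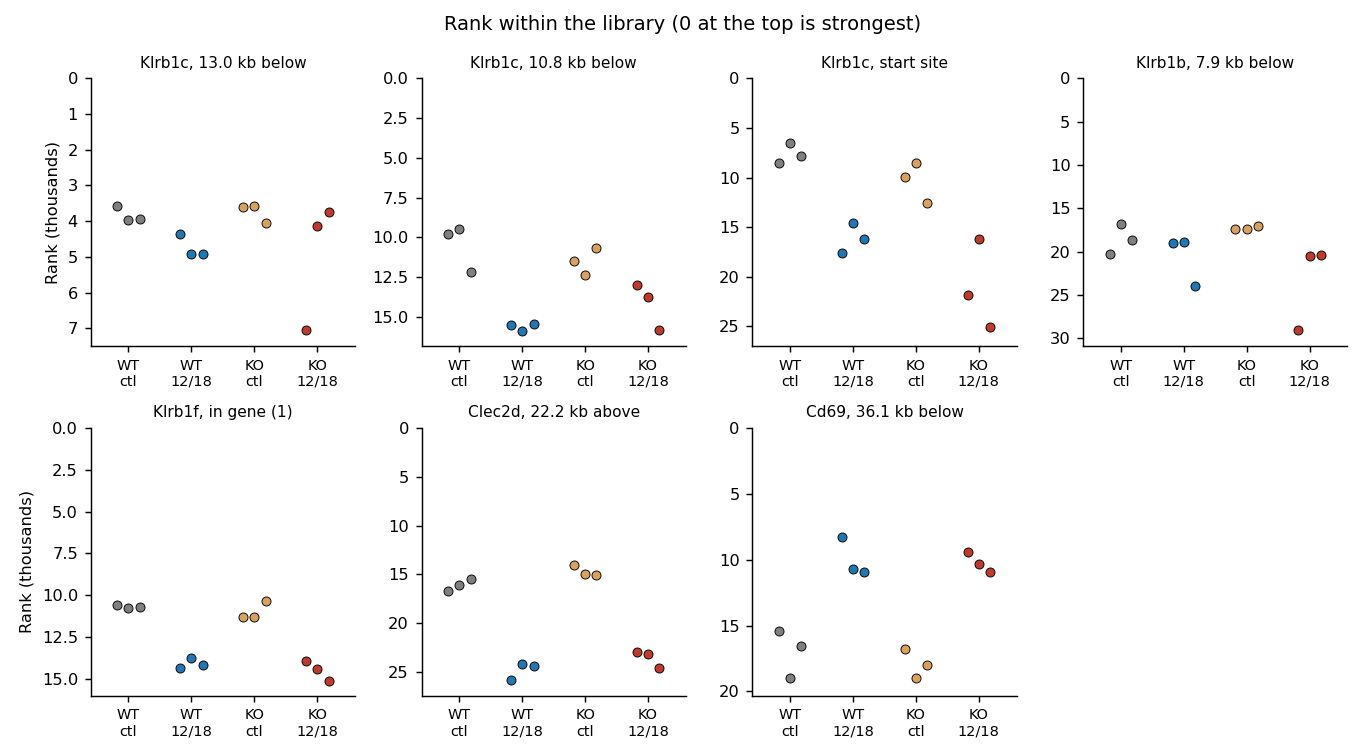
Rank within the library for the 7 regions whose rank difference with stimulation passed the test. The vertical axis is rank in units of 1000 places, with 0 at the top as the strongest, each point is a library, and the 4 columns are the groups. In stimulated libraries 6 regions rank weaker, and the region 36.1 kb below Cd69 ranks stronger.

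Klrb1f, an activating receptor gene, had regions that moved in opposite directions. A region inside the gene (chr6:129051286-129052467) had a call in all 6 stimulated libraries and in 0 of the controls (adjusted p = 0.0169, exact permutation test), as did 3.6% of all regions. Its ranks were 18984, 21091 and 21723 in WT and 16068, 28648 and 22752 in KO stimulated libraries. Weaker deposited peaks existed there in 3 WT and 2 KO control libraries, below the length limit of the lists. Less than 1 kb below it, another region inside the gene (chr6:129047918-129050307) moved the other way. It ranked 10375 to 11302 in the control and 13759 to 15168 in the stimulated libraries, without overlap (difference 3464 places, adjusted p = 0.0169, exact permutation test).

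The region over the start of Klrb1f (chr6:129045082-129047516) ranked 25693, 28311 and 27626 in WT control and 20065, 18135 and 19253 in WT stimulated libraries. In KO cells only control replicate 3 had a call, at 33014, whereas the stimulated libraries ranked 20789, 26384 and 25934. Within each genotype all stimulated libraries ranked ahead of the control libraries, but a region called in 10 of 12 libraries entered neither test. A region 7.1 kb above the gene (chr6:129066864-129067568) was called in 3 WT and 2 KO control libraries and in 0 stimulated libraries (adjusted p = 0.0335, exact permutation test). It held a deposited peak of any strength in 2 WT and 0 KO stimulated lists. With all deposited intervals neither this region nor the one 4.3 kb above Klrb1a passed (adjusted p = 0.0873 for each, exact permutation test). With gains and losses together, covered length with stimulation differed by −108 bp (exact permutation test, adjusted p = 0.844).

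Among the Clr ligands, Clec2d, which encodes the ligand of NKR-P1B, changed in the stretch 22 to 32 kb above the gene. There 1 region passed as called in more stimulated libraries. A region 29.1 kb above it (chr6:129215673-129216944) had a call in all 6 stimulated libraries and in 0 of the controls (adjusted p = 0.0169, exact permutation test), and no control list held even a weaker peak. It ranked 22981, 26096 and 24588 in WT and 24254, 25674 and 21501 in KO stimulated libraries. A region 32.0 kb above (chr6:129218569-129219292) was called in 1 WT and 3 KO stimulated libraries and in 0 control libraries, which did not pass (adjusted p = 0.0635, exact permutation test). A deposited peak of any strength was present there in all 6 stimulated and none of the control lists.

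The third region of that stretch, 22.2 kb above Clec2d (chr6:129208708-129210919), became weaker in rank and wider together. Its ranks were 14037 to 16669 in control and 22927 to 25810 in stimulated libraries (difference 8799 places, adjusted p = 0.0169, exact permutation test). Its width was 780, 814 and 577 bp in WT control and 1781, 2159 and 2156 bp in WT stimulated libraries. In KO cells it was 572, 722 and 846 bp in control and 1527, 1702 and 1953 bp in stimulated libraries. Each control library had 1 summit there and each stimulated library 2 or 3. The groups overlapped in neither rank nor width. The plain width of this region did not pass (adjusted p = 0.0546, exact permutation test), and 0 widths passed at any member or genome-wide. At an unadjusted p under 0.05 the widths of 8 of the 17 member regions differed, against 26.7% of all regions. Divided by each library's median width, it passed (adjusted p = 0.045, exact permutation test).

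The start region of Clec2d (chr6:129179949-129181259) was strong in all 12 libraries, with ranks from 2467 to 8295 that overlapped between groups (adjusted p = 0.0969, exact permutation test). The covered length of the gene's regions rose from 1743 ± 322 bp to 3847 ± 290 bp (SD, n = 3) in WT and from 1568 ± 142 bp to 3683 ± 380 bp in KO cells. The difference of 2109 bp passed (exact permutation test, adjusted p = 0.0334). The result rests on the distant regions. With regions limited to 20 kb from a gene, the difference was −41.3 bp. In lists reduced further to 17555 intervals it was −760 bp (exact permutation test, adjusted p = 0.0344). With all deposited intervals it was 2095 bp and did not pass (exact permutation test, adjusted p = 0.0583).

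Clec2i, which encodes the ligand of NKR-P1F, was open in all libraries. Its start region (chr6:128886729-128891433) ranked 3022 to 6321 in all 12 lists, with no passing rank difference. Its width in WT libraries was 3221 to 3427 bp in the controls and 3939 to 4656 bp after stimulation. In KO libraries it was 3010 to 3172 bp and 2824 to 4153 bp. KO stimulated replicate 2, at 2824 bp, lay below every control library, and the other 5 stimulated libraries lay above them all. Scaled to the library median, the region was wider with stimulation (exact permutation test, adjusted p = 0.045), as were 7.19% of regions genome-wide against 3.93% narrower. On that scale 3 member regions passed as wider and 0 as narrower: this region, the Clec2d region 22.2 kb above its gene and the Cd69 region 36.1 kb below its gene. A second Clec2i region 2.1 kb above the gene (chr6:128900261-128902599) ranked 15028 to 29941 in control and 21722 to 29439 in stimulated libraries, a difference of 5780 places that did not pass (adjusted p = 0.0811, exact permutation test).

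Clec2g, a further Clr gene, had no region over its start and 2 weak regions inside the gene. The region at chr6:128972635-128973130 was called in 3 WT and 2 KO stimulated libraries and in 0 control libraries (adjusted p = 0.0335, exact permutation test). Weaker deposited peaks were present there in 1 WT and 1 KO control library. With all deposited intervals the call was lost (adjusted p = 0.357, exact permutation test). The gene's covered length was 430, 719 and 949 bp in WT control and 1187, 994 and 1314 bp in WT stimulated libraries. It was 0 bp in all KO control libraries and 0, 403 and 425 bp in the stimulated ones. The difference of 371 bp did not pass (exact permutation test, adjusted p = 0.0742). Without KO stimulated replicate 1, which had no call, it was 440 bp and passed (exact permutation test, adjusted p = 0.0355).

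**Figure D3:**
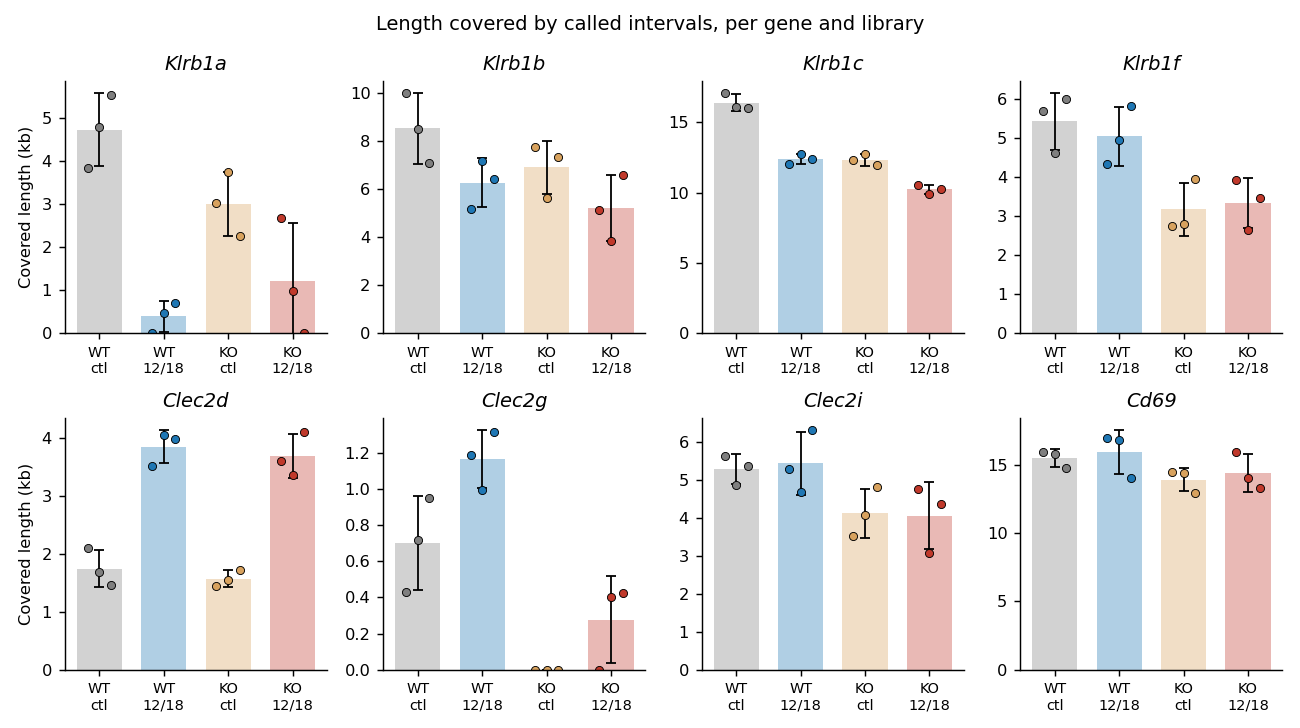
Covered length in kb per gene and group. Points are libraries, bars the group mean and error bars the SD of 3 libraries, drawn only above 0. Clec2d is longer and Klrb1c shorter in stimulated libraries of both genotypes.

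Cd69 had 6 regions, and the largest change in rank among the 4 called in all 12 libraries was far from the gene. The region 36.1 kb below it (chr6:129229068-129231264) ranked 15418, 19014 and 16572 in WT control and 8272, 10722 and 10954 in WT stimulated libraries. In KO cells it ranked 16773, 18967 and 18016 in control and 9432, 10294 and 10921 in stimulated libraries. All stimulated libraries ranked ahead of all controls, with a mean difference of −7361 places (adjusted p = 0.0169, exact permutation test). Its width was 814 to 1606 bp in control and 1857 to 2187 bp in stimulated libraries, also without overlap. The plain width difference of 789 bp did not pass (adjusted p = 0.0546), and the scaled width did (adjusted p = 0.045, both exact permutation tests). This region lies between Clec2d and Cd69, as do the regions described above Clec2d. It was given to Cd69 because Cd69 is the nearer gene, and which gene it serves was not tested.

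The region across the upper end of Cd69 (chr6:129272520-129277570) did not shift in rank, at 5596 to 9783 in all libraries. Its width was 2898 to 3808 bp in control and 3867 to 4626 bp in stimulated libraries, without overlap. The width difference of 880 bp did not pass (adjusted p = 0.0546), nor did the scaled width (adjusted p = 0.0641, both exact permutation tests). The strongest summit of the region moved. Positions were measured from the lower edge of the region. The summit lay at 1377, 1346 and 1343 bp in WT control and at 2907, 2929 and 2889 bp in WT stimulated libraries. It lay at 2895, 1350 and 1356 bp in KO control and at 3122, 2929 and 2898 bp in KO stimulated libraries. KO control replicate 1 thus sat among the stimulated libraries and the other 5 controls apart from them. The median stimulated summit lay 62 bp above the annotated upper end of the gene, and the median control summit at −1503 bp, inside the gene.

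A second broad Cd69 region, 28.7 kb below the gene (chr6:129232182-129238595), showed the same kind of move. Its strongest summit lay at 5741 to 5869 bp in all WT control libraries and in KO control replicates 2 and 3, and at 869 bp in KO control replicate 1. In the 6 stimulated libraries it lay at 4101 to 4191 bp. The medians of control and stimulated libraries were 1674 bp apart here and 1565 bp at the upper end region. These were the 2 of 17 member regions with a move of 1000 bp or more, against 1.81% of 21076 regions, but only wide regions can show one. Among regions of 5000 bp or wider the share was 13.7% of 525, and 5 member regions were that wide. In 12 of the 17 the medians differed by less than 100 bp. Summit positions carry no test.

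**Figure D4:**
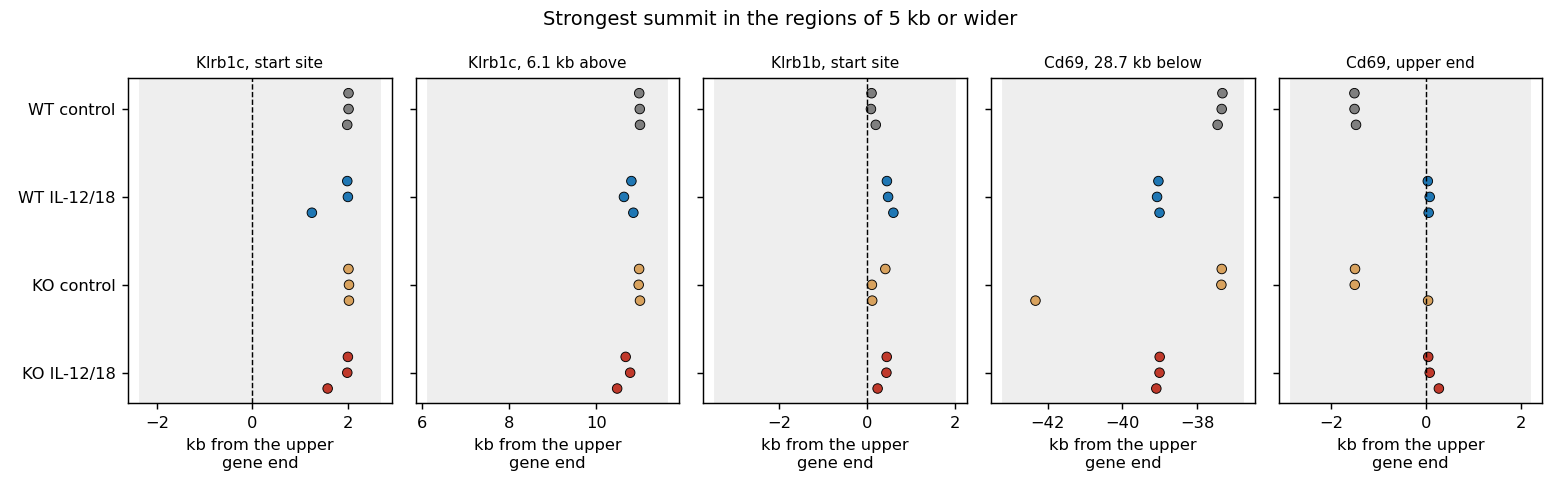
Strongest summit in the 5 member regions of 5 kb or wider. The horizontal axis is the distance in kb from the upper end of the gene (dashed line where it lies in the region), grey is the region, points are libraries and rows are groups. In both Cd69 regions the stimulated libraries sit together, apart from at least 5 of the 6 control libraries.

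The remaining Cd69 regions changed little or were weak. The region 8.0 kb above the gene (chr6:129283382-129285431) ranked 1564 to 5039 in all 12 lists. The region across the lower end (chr6:129265278-129268421) was called in 11 libraries, with ranks from 14397 to 33932. The region 11.0 kb below it (chr6:129255799-129256291) was called in 2 KO control libraries and 1 KO stimulated library. The covered length of Cd69 was 12926 to 16948 bp over the 12 libraries and differed by 471 bp with stimulation (exact permutation test, adjusted p = 0.641). Without KO stimulated replicate 1 it was 85.3 bp. When each region went to the nearest of the 8 members, whatever other gene was nearer, Cd69 also took in 2 regions that lie nearer Clec2m. The difference was then 2092 bp and passed (exact permutation test, adjusted p = 0.0334). Outside these loci, Coq2, Frmd8 and Ptma lay closest to Cd69 in covered length over the 12 libraries, each gene divided by its own mean. Their mean absolute differences from Cd69 were 0.0522, 0.0599 and 0.0654 of each gene's own mean, against a median of 0.157 over 1687 candidates. Whether these genes share a response with Cd69 was not tested.

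Loss of Regnase-1 gave no passing difference at the 8 genes. In calls, rank, width and covered length 0 member results passed, and 0 passed genome-wide in any of these tests (0% background). With a smallest p of 0.005, an adjusted p of 0.05 needs at least 10% of all tested features at that p, so single regions cannot pass alone. At an unadjusted p under 0.05 the exact permutation tests gave 1 of 2 member regions in calls, 3 of 17 in rank, 9 of 17 in width and 4 of 8 genes in covered length. The same counts over all features were 12.4% of 1835 regions, 17.3% and 22.5% of 21076 regions and 23.1% of 14352 genes.

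The member region with the smallest genotype p in calls lay inside Clec2g (chr6:128962584-128963532). It was called in 6 of 6 WT libraries, at ranks of 22569, 32397 and 29248 in control and 31658, 31680 and 33952 in stimulated libraries. It was called in 0 of 6 KO libraries (p = 0.005, adjusted p = 0.158, exact permutation test). All 3 KO control lists held a weaker deposited peak there and no KO stimulated list did. Of all regions, 26 of 45091 (0.0577%) were called in all WT and no KO library and 0.071% the opposite way.

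Covered length was lower in KO than in WT cells on average at each of the 8 genes, as it was at 82.3% of all genes. The median difference was −1303 bp over the members and −187 bp over all genes. These are base pairs and not shares of a gene's covered length, so genes with more or wider regions can differ by more. Whether the members differ from other genes was not tested. Every KO library lay below every WT library for 2 of the 8 genes, Klrb1f (highest KO 3952, lowest WT 4331 bp) and Clec2g (425 and 430 bp), as for 1.82% of all genes. Klrb1c differed by −3109 bp, Klrb1f by −1978 bp and Clec2g by −794 bp, each at the smallest p the exact permutation test allows (0.005) and an adjusted p of 0.0896. KO libraries also had lower median widths, 1128.5 to 1312.5 bp against 1250 to 1475 bp in WT, and the part of this in the covered length was not tested apart from scaling. After scaling to each library's median width, 12 of 17 member regions had a lower mean width in KO and 5 a higher one. None passed (smallest adjusted p = 0.189, exact permutation test), as 0 passed genome-wide. The share of all regions with a lower scaled width in KO is not given here. On the same scale the covered length of Cd69 and Clec2d turned to higher in KO (101 and 175 bp).

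The smallest genotype p belonged to 5 widths, at 0.005 with an adjusted p of 0.103 in the exact permutation test. They were the Klrb1c start region (−1558 bp), the region 6.1 kb above Klrb1c (−686 bp), the Clec2i region 2.1 kb above the gene (−831 bp), the Cd69 region 8.0 kb above the gene (−299 bp) and the Cd69 region 28.7 kb below the gene (−945 bp). In the last, every KO library (at most 5790 bp) lay below every WT library (at least 5928 bp), as in 1.81% of regions genome-wide. Scaled to the library median, the 5 differences were −1205, −222, −732, −123 and −308 bp in the same order. Their unadjusted p was then 0.005, 0.43, 0.015, 0.385 and 0.5 (exact permutation test). The smallest genotype p in rank belonged to the Clec2d region 22.2 kb above the gene, with a difference of −1333 places, stronger in KO (p = 0.015, adjusted p = 0.149, exact permutation test).

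No treatment effect was shown to differ between the genotypes. In rank, width and covered length 0 member differences of effects passed the exact permutation test (0% of all features). At an unadjusted p under 0.05 there were 0 of 17 in rank, 0 of 17 in width and 1 of 8 in covered length, against 6.34%, 4.92% and 4.86% of all features.

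Relatives and partners of the 8 genes were described from a fixed list. Of 7 relatives, 4 had a region. Of their 8 regions 4 could be tested for calls, and 1 was called in more and 2 in fewer stimulated libraries. The shares over all testable regions were 33.5% and 26.2%. Klrb1, a further NKR-P1 gene, had a covered length of 2835 to 2930 bp in WT control and 0 bp in all WT stimulated libraries. In KO cells it was 2639 to 3100 bp in control and 0 to 1023 bp in stimulated libraries (difference −2578 bp, adjusted p = 0.0334, exact permutation test). Clec2m, on the far side of Cd69, rose from 409 to 865 bp in WT control to 2606 to 3036 bp in WT stimulated libraries, and in KO cells from 741 to 775 bp to 1092 to 1869 bp (adjusted p = 0.0334, exact permutation test).

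The partners listed were Fcer1g, Syk, Lck and Ptpn6, which signal for NKR-P1 receptors, S1pr1, which CD69 binds, S1pr5 and Zc3h12a. Of their 36 regions only 2 could be tested for calls, and 0 passed in either direction. Of the 18 called in all 12 libraries, 4 ranked stronger and 8 weaker with stimulation, against 17.5% and 25.2% genome-wide. Covered length fell at 3 of the 7 partners with the same adjusted p (0.0334, exact permutation test), as it did at 11.9% of all genes. The difference was −1792 bp at Ptpn6, which encodes the phosphatase SHP-1 of inhibitory signalling, −1864 bp at S1pr1 and −552 bp at S1pr5.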

How the data were processed

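ATAC-seq peak lists of 12 libraries of mouse splenic NK cells were analysed, 3 each of WT control, WT stimulated, KO control and KO stimulated cells; groups and replicate numbers are those of the sample titles. The submitters' processing notes name MACS2 2.1.1.20160309, Bowtie2 2.3.4.1, FastQC 0.11.9, deepTools 3.4.2, cutadapt 4.1, SAMtools 1.15.1 and the build mm10, with no role. Settings and any shift of reads for the transposase are not given in the sources used here. The authors deposited 1 list per library. Each deposited interval carries a fold over background, which is a ratio, and −log10 p and −log10 q values, all belonging to that peak within its own list. In the tests they were used only to rank within a list, and −log10 q also served to describe where reduced lists ended. The deposited summit offset is in base pairs.

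Intervals with several summits were taken as 1. Chromosomes 1 to 19, X and Y were used. Each list was reduced to its 35110 strongest intervals by −log10 q, merged at 1 bp overlap, and regions called in 2 or more libraries were kept. Each went to the nearest gene among protein-coding genes whose body lay within 50 kb (RefSeq, GRCm38.p6). Presence, rank, width and covered length were compared by exact two-sided permutation tests over libraries, stratified by the other factor (400 rearrangements; the difference of treatment effects by permuting genotype within treatment), with Benjamini-Hochberg adjustment over all features and a threshold of 0.05. The tests were tried on simulated data. Computation used Python 3.11.15, numpy 2.4.6, pandas 2.3.3, matplotlib 3.10.9 and Biopython 1.88.

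The members and lists were chosen with earlier results of these data known. Printed regions are those that passed a test, those at member starts and those with the smallest genotype p; further regions were described after their values were seen. Alternatives were all deposited intervals, 17555 intervals, ranking by fold, calls covering 50% of a region, windows of 250 bp to each side of summits, regions in 3 libraries, a flank of 20 kb, the nearest of the 8 members, scaled widths, leaving out each library, and the replicate block.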

Additional observations from a re-analysis of the deposited data

How the results depend on the processing

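Counts of member results past the threshold are given first for the main setting and then for each alternative that moved them by over 1.5 times. Regions called in more stimulated libraries numbered 3, and 0 with 17555 intervals and 5 with summit windows. Regions called in fewer numbered 4, and 1 with all deposited intervals, 2 with 17555 intervals, 0 with calls covering 50% of a region, 7 with summit windows and 0 with the replicate block. Weaker ranks numbered 6, and 3 with 17555 intervals, 3 with calls covering 50% and 0 with the block. The 1 stronger rank became 0 with 17555 intervals, with calls covering 50%, with a 20 kb flank and with the block, and 2 with the nearest of the 8 members. With the 20 kb flank the region itself still passed, but at 36.1 kb it was no longer given to Cd69. Widths numbered 0, and 3 wider and 3 narrower with all deposited intervals, and 3 wider with scaled widths. Longer covered length numbered 1, and 0 with all deposited intervals, 17555 intervals, summit windows, a 20 kb flank or the block, and 2 with the nearest member, which adds Cd69 (2092 bp). Shorter covered length numbered 2, and 0 with all deposited intervals, summit windows or the block, and 1 with calls covering 50% or a 20 kb flank. Over the leave-one-out runs the counts were 3 to 4 (called in more), 4 to 5 (called in fewer), 4 to 7 (weaker rank), 1 to 1 (stronger rank), 1 to 2 (longer) and 1 to 2 (shorter). Genotype calls and differences of treatment effects numbered 0 in each of these settings, with 1 exception under the block. Ranks were not tested with all deposited intervals, since the lists differ in length.

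The replicate block rearranges labels only within a replicate number, has 64 rearrangements and a smallest p of 0.0312. It gave 1 genotype call, the Clec2g region called in all WT and no KO library. Of the treatment calls it kept the 2 regions called in all stimulated and no control libraries, in Klrb1f and 29.1 kb above Clec2d (adjusted p = 0.0324 for each, exact permutation test), and no call in fewer libraries, rank or covered length. In rank even member regions without overlap between control and stimulated libraries stopped at an adjusted p of 0.078, so rank could not pass there. Between same-numbered libraries, deviations of log2 rank from the group mean had a correlation over 0.1 in 11 of 18 pairs (−0.017 to 0.542). For log2 width this was so in 2 of 18. In log2 rank all 3 pairs exceeded 0.1 between KO control and KO stimulated (0.159 to 0.203), WT control and KO control, and WT control and KO stimulated libraries, but not between WT control and WT stimulated ones (0.055 for replicate 2). The labels give no shared animal or day, and the numbers were not taken to pair the libraries, since not every pair exceeded 0.1.

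Covered length changed sign as follows. The treatment difference of Clec2d was −760 bp with 17555 intervals and −41.3 bp with a 20 kb flank; of Cd69 −83.3 bp with summit windows and −40.3 bp with a 20 kb flank; of Clec2g −224 bp with all deposited intervals; of Klrb1f 167 bp with summit windows and −312 to 90.2 bp over the leave-one-out runs (positive without WT control replicate 3, WT stimulated replicate 1, KO control replicate 3 and, at 67.3 bp, KO stimulated replicate 2). For Clec2i it was −412 bp with all deposited intervals, −139 bp with 17555 intervals, −221 bp with calls covering 50%, and −182 to 287 bp over the leave-one-out runs, negative in 5 of the 12. The genotype difference reversed with summit windows for Cd69 (750 bp), Clec2d (167 bp), Klrb1a (83.3 bp), Klrb1b (333 bp) and Klrb1c (500 bp), and with scaled widths for Cd69 (101 bp) and Clec2d (175 bp). Of these only the Clec2d treatment difference had passed in the main setting; the cause was not tested.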
